A study of Mus musculus with 29 samples.

Results

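miR-34a and Let-7b are both microRNAs known to restrain tumour growth, and the question here was which genes read differently in muscle precursor cells that had received one or the other. The comparison set the 3 arrays labelled C2C12 miR-34a over-expression directly against the 3 labelled C2C12 Let-7b over-expression, 6 of the 29 arrays of the series, and used no control array in the test. C2C12 is a mouse myoblast line that divides in rich medium and, when serum is withdrawn, leaves the cell cycle and fuses into myotubes. Cells at passage 27 in medium with serum, at subconfluent density, received a miR-34a mimic, a Let-7b mimic or the negative control oligonucleotide AllStar. Each was given at 50 nM with the Hiperfect reagent, and total RNA was taken 36 h later. Mimics of miR-1, miR-22, miR-365, miR-29a and miR-145 were given alike, and their arrays entered only the estimate of spread. Untransfected myoblasts and myotubes, 1 array each at passage 27, served as description only. The labels describe 3 independent experiments, so the 3 arrays of a group came from separate transfections. All results are therefore from 1 cell line, 1 dose and 1 time.

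A microRNA is a short RNA that guides an Argonaute protein to messenger RNAs whose 3′ untranslated regions pair with its seed, bases 2 to 8, and lowers their level or their translation. miR-34a is a direct transcriptional target of p53 and is known to lower cyclin and receptor messages. The let-7 family accumulates as cells differentiate and is known to lower Ras, Hmga2 and other growth genes. The 2 mature mouse sequences are shown because their seeds decide which messages each can pair with, with the seed in capitals (RefSeq, GRCm38.p6, plus strand of chr4:150068473-150068494 and of chr15:85707325-85707346).
mmu-miR-34a-5p: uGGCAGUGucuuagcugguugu
mmu-let-7b-5p: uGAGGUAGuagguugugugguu
Both are 22 bases long, and 2 of the 7 seed positions carry the same base. These are the natural microRNAs, and the sequences of the purchased mimics are not stated in the labels. The level of the mimics was not measured. The probe set of the Mir34a gene, which reads its transcript and not the mimic, had 4.77, 5.15 and 5.27 under miR-34a and 4.74, 5.31 and 5.19 under Let-7b, all below the background level defined next, so this gives no check of the transfection.

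Values are log2 RMA values per gene, so a level is a log2 value and a difference of 1 is a doubling. The background level was taken as 6.67, the median of probe sets that carry no listed gene. Array medians of the 6 arrays lay between 7.298 and 7.374. Across all genes r was 0.995 to 0.998 between arrays of the same mimic and 0.990 to 0.992 between the 2 mimics, and no pair of arrays held identical values. Every difference is miR-34a minus Let-7b, and a value after ± is its standard error (SE). A gene passed when limma's adjusted p was under 0.05 over all 19938 genes. The median SE of a difference was 0.0994. Each mean rests on 3 arrays, while the spread behind the SE came from the 21 arrays of the 7 mimics.

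Of 19938 genes, 3073 (15.4%) differed between the mimics. Of these, 1567 (7.86%) were higher and 1506 (7.55%) lower under miR-34a than under Let-7b. An adjusted p under 0.05 together with a difference of at least 1.5-fold was reached by 861 genes (4.32%), 465 (2.33%) of them higher and 396 (1.99%) lower. The median difference over all genes was 0.01. For 17321 genes (86.9%) the 95% interval of the difference lay within 1.5-fold in both directions.

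**Figure D1:**
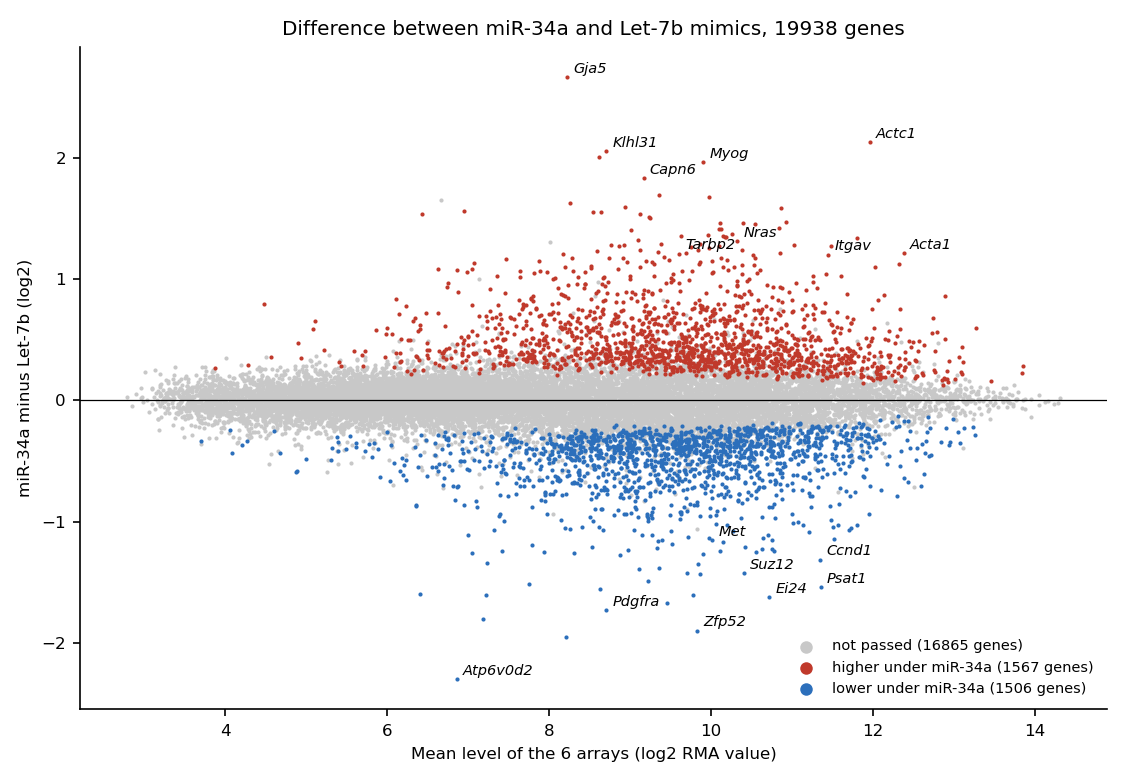
Each point is 1 gene, with its mean level over the 6 arrays (log2 RMA value) on the horizontal axis and the difference miR-34a minus Let-7b (log2) on the vertical axis. Coloured points are the 1567 genes that were higher and the 1506 that were lower under miR-34a, grey points did not pass, and Gja5 lies at 2.67; the lowest labelled point, Atp6v0d2, has a miR-34a mean below the background level, so its height is no exact difference.

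The largest differences upward included several genes of muscle. Gja5, the gap junction protein connexin 40, read 9.90, 9.42 and 9.36 under miR-34a, against 6.88, 6.86 and 6.92 under Let-7b, a 6.36-fold difference (2.67 ± 0.18, adjusted p = 3.32e-09). Every miR-34a value lay above the control values of 7.63, 7.37 and 7.49 and every Let-7b value below them. Actc1, the cardiac form of alpha actin that embryonic skeletal muscle also uses, read 12.97, 13.14 and 12.96 under miR-34a, against 10.59, 11.04 and 11.06 under Let-7b (2.13 ± 0.16, adjusted p = 1.13e-08). Klhl31 (2.05), Mylk4 (2.01), Smyd1 (1.56), a methyltransferase of developing muscle, and Ccdc141 (1.59) were likewise higher under miR-34a, above the controls with it and below them with Let-7b. Erbb3, a receptor of neuregulins, read 9.59, 9.33 and 9.04 under miR-34a, against 7.63, 7.77 and 7.89 under Let-7b (1.56 ± 0.16, adjusted p = 5.42e-07), and its Let-7b values overlapped the control values of 8.28, 7.88 and 7.74. Capn6, a calpain-family protein without protease activity, read 9.99, 10.11 and 10.15 under miR-34a, against 8.17, 8.50 and 8.08 under Let-7b (1.83 ± 0.12, adjusted p = 2.74e-09); here the miR-34a values overlapped those of the controls, 10.22, 10.10 and 10.40. The probe set of the microRNA gene Mir206, which is transcribed in muscle, read 6.76, 7.69 and 7.17 under miR-34a, against 5.01, 5.91 and 6.08 under Let-7b (adjusted p = 0.0062), with the Let-7b mean under the background level.

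Among the genes lower under miR-34a, Atp6v0d2, a subunit of the vacuolar proton pump, read 5.96, 5.44 and 5.72 under miR-34a, against 7.39, 7.76 and 8.86 under Let-7b (adjusted p = 1.83e-05). The miR-34a values were below the background level and overlapped the control values of 5.98, 5.63 and 5.60, so the difference lay in the Let-7b arrays. Pi15, a secreted protein of the CAP family, read 7.21, 7.08 and 7.42 under miR-34a, against 8.63, 9.17 and 9.78 under Let-7b (−1.96 ± 0.21, adjusted p = 1.14e-06), and controls read 6.87, 6.86 and 6.70, below both. Zfp52, a zinc finger gene, read 8.95, 8.82 and 8.87 under miR-34a, against 10.62, 10.74 and 10.97 under Let-7b (−1.90 ± 0.12, adjusted p = 2.08e-09), again with miR-34a values that overlapped the control values of 9.12, 8.94 and 8.998. Ei24, a membrane protein of the endoplasmic reticulum induced by p53, differed the other way about relative to the control: it read 10.04, 10.00 and 9.68 under miR-34a, against 11.40, 11.52 and 11.67 under Let-7b (−1.62 ± 0.10, adjusted p = 2.08e-09), with controls at 11.23, 11.32 and 11.46. Nectin1 (−1.67), Gprc5a (−1.60), Mrpl16 (−1.49) and Nceh1 (−1.43) were also at least 2-fold lower under miR-34a, each with its 3 miR-34a values below all control values.

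The control arrays did not enter the test, but their levels place each mimic's values. Both mimics are set against the same 3 control values, so these positions share the error of the controls. Among the 1567 genes higher under miR-34a, 459 (29.3%, against 7.57% of all genes) lay above all controls with miR-34a while their Let-7b values overlapped the controls. Another 530 (33.8%, against 6.68%) lay below all controls with Let-7b while their miR-34a values overlapped. A further 304 (19.4%, against 1.68%) lay above with miR-34a and below with Let-7b. Among the 1506 lower genes, 546 (36.3%, against 7.49%) lay below the controls with miR-34a alone and 402 (26.7%, against 7.5%) above them with Let-7b alone. A further 280 (18.6%, against 1.51%) lay below with miR-34a and above with Let-7b. Which positions a gene can take depends on its direction, so these shares follow in part from the call. Pdlim3 (1.43), a Z-disc protein, and Klhl41 (1.42), a sarcomere stabiliser, were in the first class. Prss23 (1.46), Slc16a3 (1.36), a lactate transporter, and Cmas (1.29), an enzyme that activates sialic acid, were below the controls with Let-7b alone. Vdr (−1.25), the vitamin D receptor, and Scamp4 (−1.22) were below with miR-34a alone, and Plek (adjusted p = 2.86e-07) and Enpp3 (−1.39) were above with Let-7b alone.

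Listed targets of miR-34a are 47 measured genes, chosen with earlier results of these data known, so their counts are descriptions. In all but 1 of the cases that passed they were lower under miR-34a. In numbers, 17 were lower (36.2%, against 7.55% of all genes) and 1 was higher, with a median difference of −0.25 against 0.01 over all genes. Without 1 of the 6 arrays the lower count was 13 to 17. The 29 that did not pass lay between −0.56 and 0.14. The list holds cyclins, kinases and receptors. Ccnd1, the cyclin that starts G1, read 10.88, 10.71 and 10.47 under miR-34a, against 12.17, 11.76 and 12.08 under Let-7b (−1.31 ± 0.16, adjusted p = 5.74e-06). Let-7b values overlapped the control values of 12.15, 11.98 and 12.01, and the miR-34a values lay below both. Met, the receptor of hepatocyte growth factor, read 9.34, 9.46 and 9.53 under miR-34a, against 10.62, 10.53 and 10.63 under Let-7b (−1.15 ± 0.09, adjusted p = 2.39e-08), with controls at 10.52, 10.59 and 10.57. Axl, the receptor of Gas6, read 12.06, 11.91 and 11.73 under miR-34a, against 12.71, 12.65 and 12.71 under Let-7b (−0.79 ± 0.08, adjusted p = 8.34e-07), with controls at 12.86, 12.58 and 12.64. For both receptors the Let-7b arrays stood with the controls.

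Pdgfra, a receptor of platelet-derived growth factor, differed most in this list. It read 7.75, 7.999 and 7.79 under miR-34a, against 9.38, 9.51 and 9.82 under Let-7b (−1.73 ± 0.12, adjusted p = 2.88e-09). The control values, 8.44, 8.41 and 8.25, lay between the mimics, so the gene was below the control with miR-34a and above it with Let-7b. Cdk6, the kinase partner of cyclin D, stands in the target lists of both microRNAs. It read 10.44, 10.32 and 10.28 under miR-34a, against 11.17, 11.26 and 11.19 under Let-7b (−0.86 ± 0.08, adjusted p = 3.14e-07), and the controls at 11.67, 11.71 and 11.71 were above all 6 arrays. Sirt1, a deacetylase of p53, was lower (−0.58 ± 0.10, adjusted p = 0.000247), as were E2f3 (−0.52 ± 0.11, adjusted p = 0.00283) and the survival gene Bcl2 (−0.45 ± 0.09, adjusted p = 0.0019). Jag1, a Notch ligand, was lower as well (−0.90 ± 0.16, adjusted p = 0.000536), although its miR-34a values of 10.08, 9.51 and 9.54 overlapped the controls of 10.20, 9.62 and 9.71 and only the Let-7b values of 10.69, 10.67 and 10.47 stood apart. The 1 gene of the list that was higher was Dll1, another Notch ligand, at 8.73, 9.45 and 9.01 under miR-34a, against 7.96, 8.20 and 7.76 under Let-7b (1.09 ± 0.22, adjusted p = 0.00129). Notch1 itself did not pass (−0.25 ± 0.17, adjusted p = 0.409; 95% interval −0.59 to 0.10).

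Listed let-7 targets, 52 measured genes chosen in the same way, leaned the other way. Of these, 16 were higher under miR-34a (30.8%, against 7.86% of all genes) and 4 lower (7.7%, against 7.55%), with a median of 0.14. Without 1 of the 6 arrays 12 to 16 were higher. Of the higher genes, Igf2bp3 read 6.52, 6.56 and 6.62 under miR-34a, against 6.31, 6.38 and 6.26 under Let-7b (adjusted p = 0.024). All these values lay below the background level. Its call was lost without replicate 2 or 3 of miR-34a or replicate 1 or 3 of Let-7b. The 4 lower genes were Ccnd1, Cdk6, Prtg (−0.35) and Dna2 (−0.35), the last 2 named after their values were seen. Ccnd1, Cdk6, Myc and Mycn are in both target lists. Without them 16 of 48 let-7 targets were higher and 2 lower, and 1 of 43 miR-34a targets was higher and 15 lower. Nras, a Ras GTPase, read 11.11, 10.88 and 10.96 under miR-34a, against 9.95, 9.59 and 9.47 under Let-7b, a 2.48-fold difference (1.31 ± 0.12, adjusted p = 2.06e-07). Only the Let-7b values lay apart from the control values of 11.17, 10.94 and 10.97. Cdc34, a ubiquitin-conjugating enzyme, read 10.90, 10.93 and 10.98 under miR-34a, against 10.21, 9.96 and 9.99 under Let-7b (0.88 ± 0.09, adjusted p = 5.82e-07), with controls at 10.67, 10.68 and 10.60. Gatm, an enzyme of creatine synthesis, read 11.93, 11.96 and 11.95 under miR-34a, against 10.94, 10.93 and 10.84 under Let-7b (1.04 ± 0.10, adjusted p = 3.09e-07). E2f6, a repressor of the E2F family, was 0.84 higher, the receptor Tgfbr1 0.63 and Ccnd2 0.60.

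Several classical let-7 targets did not pass in the main fit, which has no term for the replicate number. Hmga2, a chromatin protein of embryonic growth, read 11.88, 10.58 and 11.62 under miR-34a, against 11.02, 10.54 and 10.98 under Let-7b (0.51 ± 0.33, adjusted p = 0.391). One array of each mimic was low, the second replicate of both, and with the replicate number as a block the adjusted p was 0.0137. Myc read 11.36, 10.71 and 10.96 under miR-34a, against 11.77, 11.48 and 11.45 under Let-7b (−0.56 ± 0.22, adjusted p = 0.104), and the blocked adjusted p was 0.000184. Cdc25a, a phosphatase that activates cyclin-dependent kinases, read 10.48, 10.21 and 10.35 under miR-34a, against 10.76, 10.54 and 10.56 under Let-7b (−0.28 ± 0.09, adjusted p = 0.052), with a blocked adjusted p of 0.0121 and all control values, 11.12, 11.08 and 11.06, above both mimics. Trim71 (0.09 ± 0.08, adjusted p = 0.61) and Igf1r (0.18 ± 0.08, adjusted p = 0.163; 95% interval 0.01 to 0.35) did not pass. Arid3b (−0.11 ± 0.08, adjusted p = 0.445) and Igf2bp1 (0.03 ± 0.10, adjusted p = 0.913) had means near the background level, and Lin28b read between 4.99 and 5.21 on the 6 arrays, under it. Igf2bp2, Cdkn1a, Trp53 and Ccnb1 were not analysed here.

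**Figure D2:**
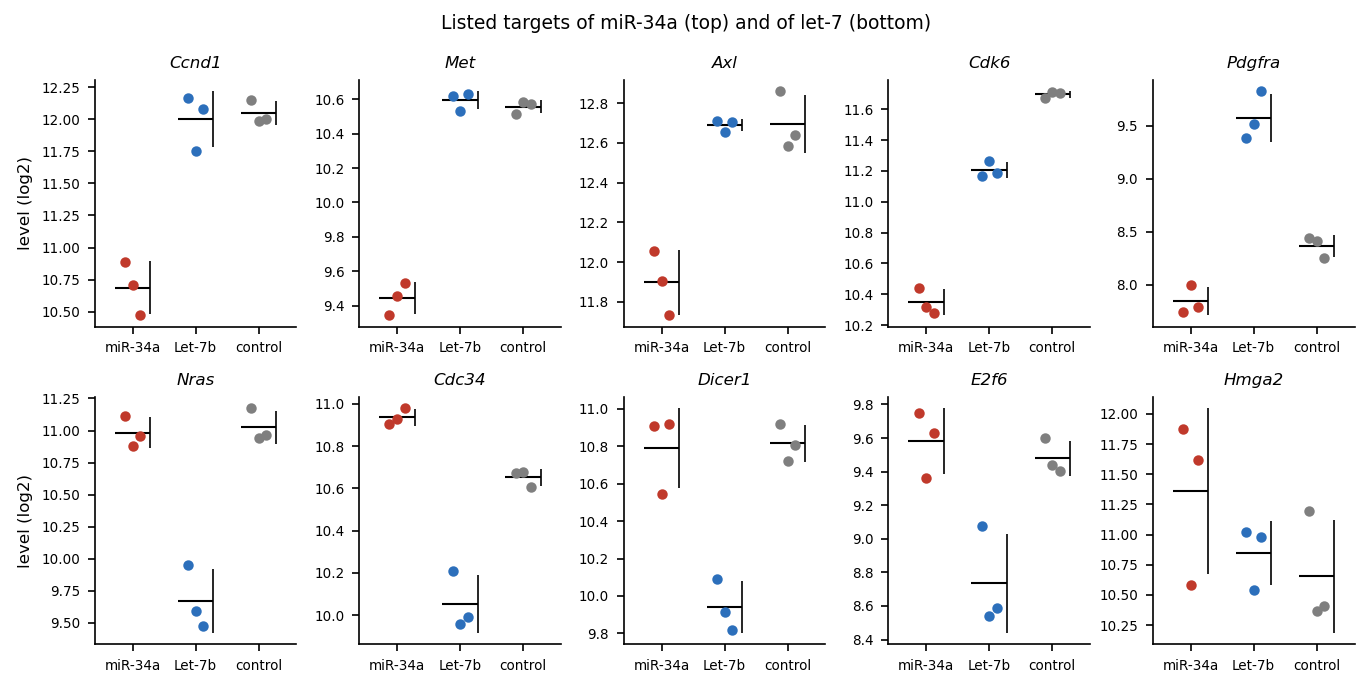
Levels (log2 RMA value; each panel has its own axis, which does not start at 0) of 5 listed miR-34a targets in the top row and 5 listed let-7 targets in the bottom row. Points are the 3 samples of miR-34a, Let-7b and the control, horizontal bars the means and vertical bars the SD (n = 3 each), and Nras is low with Let-7b alone, Met and Axl are low with miR-34a alone, and Cdk6 is below the control with both.

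Genes of the muscle programme that differed were nearly all higher under miR-34a than under Let-7b. Of 55 measured genes of the sarcomere and of calcium handling, 32 were higher (58.2%, against 7.86% of all genes) and 1 was lower, with a median difference of 0.67. The higher genes ran from 0.22 to 2.13. The lower one was Nebl, a nebulin-like gene named after its value was seen, whose miR-34a mean lay below the background level, and the 22 that did not pass ran from −0.30 to 0.86. Of 30 myogenic factors and fusion genes, 16 were higher (53.3%), from 0.20 to 1.97, and 1 was lower, Jam2 (−0.32), also named after its value was seen. The mean level of the sarcomere list was 9.99, 9.89 and 9.93 under miR-34a, 9.02, 9.30 and 9.50 under Let-7b, and 9.58, 9.43 and 9.40 in the controls.

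Myog, the transcription factor that opens terminal differentiation, read 10.68, 11.24 and 10.73 under miR-34a, against 8.16, 9.34 and 9.26 under Let-7b (1.97 ± 0.28, adjusted p = 4.05e-05). The control values of 9.81, 10.05 and 9.43 lay between the mimics. Myod1, which acts before Myog in the myoblast, read 12.64, 12.63 and 12.45 under miR-34a, against 11.40, 11.71 and 11.32 under Let-7b (1.097 ± 0.14, adjusted p = 8.82e-06), with controls at 12.10, 12.15 and 11.84. Both were above the control with miR-34a and below it with Let-7b. Mef2c (1.24), a partner of these factors, Mymk (0.83), the membrane protein myomaker that drives fusion, and Rapsn (0.95), which clusters acetylcholine receptors, were higher too. For Mef2c and Mymk the Let-7b values overlapped the controls. Acta1, the adult skeletal actin, read 13.05, 12.97 and 12.95 under miR-34a, against 11.35, 11.94 and 12.03 under Let-7b (1.21 ± 0.15, adjusted p = 8.31e-06). Myh3, the embryonic myosin heavy chain, read 10.98, 10.83 and 10.74 under miR-34a, against 8.97, 9.50 and 9.68 under Let-7b (1.47 ± 0.20, adjusted p = 2.53e-05). Tnnt1 (1.35), the slow troponin T, Mybph (1.47), a myosin-binding protein, Xirp1 (1.40) and Ckm (1.29), muscle creatine kinase, followed. Among members that did not pass were Pax7 and Myf5 of the muscle precursor, which differed by 0.01 and −0.01, both named after their values were seen.

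The first Let-7b replicate had the lowest mean level of the sarcomere list, and Myog read 8.16 there against 9.34 and 9.26 in the other Let-7b arrays. Without it 22 sarcomere genes were higher and the median was 0.49. Fewer differentiating cells and less RNA per cell cannot be told apart in bulk RNA. Of 11 myotube markers, 7 were higher (63.6%, against 7.86% of all genes) and none lower. All 11 lay above the background level with both mimics. Their mean level was 10.39, 10.36 and 10.34 under miR-34a and 8.96, 9.47 and 9.70 under Let-7b. All 10 myoblast markers lay above background too. Of these, 4 were higher and 2 lower, both shares above the 7.86% and 7.55% of all genes. Of 8 fibroblast markers, Pdgfra was lower and Dcn higher (0.71 ± 0.23, adjusted p = 0.0353), a call lost when any of 5 of the 6 arrays was left out, with an adjusted p up to 0.156; the mean level of that list was 7.66, 7.88 and 7.80 under miR-34a and 7.87, 7.95 and 7.91 under Let-7b. Of 8 macrophage markers, Cd14 was lower (−0.77 ± 0.13, adjusted p = 0.000174), and the mean level of that list was 6.33, 6.32 and 6.23 under miR-34a and 6.44, 6.42 and 6.41 under Let-7b, under the background level. None of the listed 8 adipocyte, 6 osteoblast, 6 chondrocyte or 6 endothelial markers passed in limma, with none at an unadjusted p under 0.05. The part of other cell types in the results was not tested. In the 1 array of untransfected myotubes, 153 of the 1567 genes higher under miR-34a (9.76%) were at least 2-fold above the 1 array of myoblasts, as were 34 of the 1506 lower genes (2.26%) and 540 of all genes (2.71%); these 2 arrays have no replicates.

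Inhibitors of myogenesis did not share one direction. Id3, which binds E proteins away from Myod1, read 11.30, 11.26 and 11.24 under miR-34a, against 10.61, 10.75 and 10.83 under Let-7b (0.54 ± 0.11, adjusted p = 0.00229), and Id2 (0.44) and Hdac9 (0.50) were also higher. Twist2, a repressor of muscle genes, read 9.33, 8.64 and 8.80 under miR-34a, against 10.35, 9.92 and 10.05 under Let-7b (−1.19 ± 0.21, adjusted p = 0.000414), lower under miR-34a than in the controls at 10.17, 9.74 and 9.62. In all 4 of 22 members were higher (18.2%, against 7.86% of all genes, or 8 members with the replicate block) and 2 lower (9.1%, against 7.55%), the other being Hdac4 (−0.32), named after its value was seen.

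Where genes of DNA replication differed, they were lower under miR-34a than under Let-7b. Of 49 measured members none was higher in limma (1 at an unadjusted p under 0.05) and 19 were lower (38.8%, against 7.55% of all genes), with a median difference of −0.29. The 30 that did not pass ran from −0.37 to 0.27. Mcm5, a subunit of the replicative helicase, read 10.33, 10.28 and 9.83 under miR-34a, against 11.61, 11.25 and 11.25 under Let-7b, 2.33-fold lower (−1.22 ± 0.22, adjusted p = 0.000376). Orc2, of the origin recognition complex, read 9.65, 9.58 and 9.61 under miR-34a, against 10.56, 10.50 and 10.54 under Let-7b (−0.92 ± 0.08, adjusted p = 8.66e-08). The Let-7b values of both genes overlapped the control values, which were 11.61, 11.37 and 11.37 for Mcm5 and 10.51, 10.60 and 10.62 for Orc2. Mcm10 (−0.75), Mcm7 (−0.51) and the sliding clamp Pcna (−0.23) were lower too. The mean level of the list was 9.83, 9.79 and 9.79 under miR-34a, 10.22, 10.05 and 10.07 under Let-7b, and 10.31, 10.27 and 10.27 in the controls. The first Let-7b replicate was the highest of its group, and 12 members were lower without it.

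Genes of G2 and mitosis were also lower more often than higher. Of 51 measured members 15 were lower (29.4%, against 7.55% of all genes) and 2 higher (3.9%, against 7.86%), with a median of −0.27. That count was 8 without the first miR-34a replicate, 9 without the second Let-7b replicate and 26 when only the 6 arrays gave the error. Knstrn, a spindle adaptor, read 9.80, 10.06 and 9.80 under miR-34a, against 10.95, 10.86 and 10.77 under Let-7b (−0.97 ± 0.13, adjusted p = 2.13e-05). Cdca8, of the chromosomal passenger complex, read 9.21, 9.31 and 9.35 under miR-34a, against 10.14, 10.06 and 10.09 under Let-7b (−0.80 ± 0.11, adjusted p = 2.17e-05), and Top2a, the topoisomerase of mitotic chromosomes, 11.10, 11.13 and 11.09 under miR-34a, against 11.52, 11.74 and 11.54 under Let-7b (−0.50 ± 0.12, adjusted p = 0.00623). Birc5, the survivin subunit of the same passenger complex as Cdca8, went the other way at 9.94, 10.03 and 10.03 under miR-34a, against 9.43, 9.20 and 8.96 under Let-7b (0.81 ± 0.16, adjusted p = 0.00121). Its control values, 10.33, 10.34 and 10.31, were above both mimics. Cdc25b (0.37) was the second higher gene, named after its value was seen.

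Of 21 G1 cyclins, kinases and E2Fs, 7 were lower (33.3%, against 7.55% of all genes) and 4 higher. The higher share also lay above that of all genes, 7.86%, so the list leaned to both sides. With the replicate block and only the 6 arrays, 11 were lower. Beside Ccnd1, Cdk6 and E2f3, the dimerisation partner Tfdp2 was lower (−0.57), while Ccnd2 and E2f6 were higher. Ccnd2, another cyclin D, read 10.04, 9.96 and 10.22 under miR-34a, against 9.28, 9.53 and 9.60 under Let-7b (0.60 ± 0.12, adjusted p = 0.00123), opposite in direction to Ccnd1. Cdkn2c, which inhibits Cdk4 and Cdk6, read 9.39, 9.34 and 9.22 under miR-34a, against 9.81, 10.14 and 9.99 under Let-7b (−0.67 ± 0.13, adjusted p = 0.00116). Of 28 p53 targets, 4 were higher (14.3%, against 7.86% of all genes) and 3 lower (10.7%, against 7.55%, or 5 members with the replicate block). Btg2 (0.72), an antiproliferative gene, Zmat3 (0.58) and Eda2r (0.78) were higher, Ei24 and Ddb2 were lower, the second with a miR-34a mean below the background level, and Mdm2 did not pass (0.19 ± 0.13, adjusted p = 0.445).

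**Figure D3:**
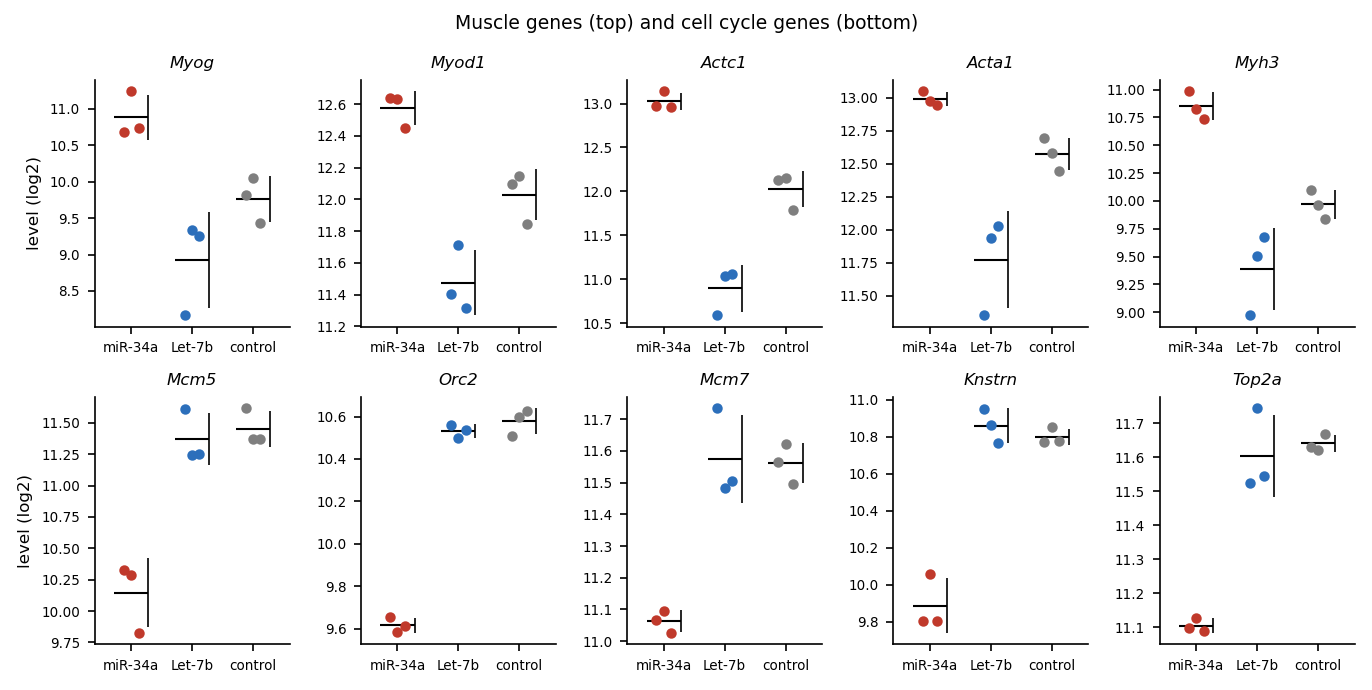
Levels (log2 RMA value; each panel has its own axis, which does not start at 0) of 5 muscle genes in the top row and 5 cell cycle genes in the bottom row. Points are the 3 samples of miR-34a, Let-7b and the control, horizontal bars the means and vertical bars the SD (n = 3 each). Of the muscle genes shown, Myog and Myod1 stand above the control with miR-34a and below it with Let-7b. The 5 cell cycle genes shown stand below the control with miR-34a.

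Promoters of both groups were searched in RefSeq windows of 300 bases (GRCm38.p6, 250 before to 50 after the gene start). The letters CAGCTG, a form of the E-box that myogenic factors bind and the same on both strands, occurred in 20 of 42 sarcomere promoters (47.6%) and in 15.9% of all 15614 promoters. It occurred in 241 of 1270 promoters of genes higher under miR-34a and in 163 of 1227 of those lower. The E2F letters TTTCCCGC or TTTGGCGC, on either strand, occurred in 12 of 41 replication promoters (29.3%) and in 1 of 42 mitosis promoters (2.4%), against 2.3% of all promoters. They occurred in 24 of the 1270 promoters of higher genes (1.9%) and in 57 of the 1227 of lower genes (4.6%). A match is a description and not a bound site. The 2 promoters printed show 1 match each, in capitals, in a sarcomere gene with a large difference (Mybph, chr1:134193198-134193497, plus strand) and in the replication gene with the largest (Mcm5, chr8:75109259-75109558, plus strand, where the capitals are the reverse complement of TTTGGCGC).
Mybph: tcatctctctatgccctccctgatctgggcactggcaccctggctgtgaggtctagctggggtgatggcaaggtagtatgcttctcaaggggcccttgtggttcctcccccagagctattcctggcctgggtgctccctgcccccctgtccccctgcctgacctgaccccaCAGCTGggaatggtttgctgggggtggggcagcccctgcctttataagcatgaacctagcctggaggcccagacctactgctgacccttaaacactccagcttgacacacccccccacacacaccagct
Mcm5: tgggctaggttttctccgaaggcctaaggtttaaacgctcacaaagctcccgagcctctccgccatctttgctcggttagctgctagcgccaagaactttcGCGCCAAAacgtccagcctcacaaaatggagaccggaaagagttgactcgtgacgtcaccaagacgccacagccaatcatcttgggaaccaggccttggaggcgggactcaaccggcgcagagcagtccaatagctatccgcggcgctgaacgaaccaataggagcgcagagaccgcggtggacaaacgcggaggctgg

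Growth signalling genes had members in both directions. Of 28 receptor tyrosine kinases, 6 were lower (21.4%, against 7.55% of all genes), among them Pdgfra, Met, Axl and Pdgfrb, and 4 were higher (14.3%, against 7.86%). Pdgfrb, the second receptor of platelet-derived growth factor, read 11.57, 11.59 and 11.30 under miR-34a, against 12.48, 12.53 and 12.27 under Let-7b (−0.94 ± 0.14, adjusted p = 9.63e-05). Erbb3 led the higher ones. Of 27 Ras and MAPK genes, 8 were lower (29.6%, against 7.55% of all genes), a count of 5 without the second miR-34a or without the third Let-7b replicate, and 2 were higher (7.4%, against 7.86%), Nras and Dusp7. Dusp7, a phosphatase of Erk kinases, read 11.56, 11.64 and 11.68 under miR-34a, against 10.75, 10.78 and 10.62 under Let-7b (0.91 ± 0.07, adjusted p = 8.78e-09). Mras (−0.70), a Ras relative, Map2k1 (−0.67), the kinase that activates Erk, and Nf1 (−0.50), a negative regulator of Ras, were lower. In the insulin-like growth factor axis Pappa, a protease that frees the factor from its binding proteins, read 10.07, 9.73 and 10.10 under miR-34a, against 8.89, 8.84 and 8.48 under Let-7b (1.23 ± 0.16, adjusted p = 1.00e-05). In all 6 of 17 members of this axis were higher (35.3%, against 7.86% of all genes), a count that fell to between 2 and 3 without replicate 2 or 3 of miR-34a or without replicate 1 or 3 of Let-7b.

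Of 26 Notch pathway genes, 7 were higher (26.9%, against 7.86% of all genes), or 4 without the first or the third miR-34a replicate, and 1 lower. Adam10, the protease that cleaves Notch receptors at the surface, read 11.02, 10.80 and 11.03 under miR-34a, against 9.71, 9.91 and 9.87 under Let-7b (1.12 ± 0.10, adjusted p = 1.31e-07), above the controls with miR-34a and below them with Let-7b. Hes6, a bHLH factor that favours differentiation, was higher (0.81) beside Dll1, and Jag1 was the lower member. Of 29 TGF-beta, BMP and Smad genes, 5 were higher (17.2%, against 7.86% of all genes), among them the receptors Acvr2a (0.71) and Tgfbr1 and the inhibitor Smad6 (0.56). In this list 6 were lower (20.7%, against 7.55%), among them Bmpr1a (−0.37), and 3 were lower without the second miR-34a replicate.

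Adhesion and matrix genes were mostly higher where they differed. Itgav, the integrin alpha V chain, read 12.18, 11.87 and 12.10 under miR-34a, against 10.96, 10.84 and 10.75 under Let-7b (1.20 ± 0.09, adjusted p = 8.78e-09), and its partner chain Itgb3 read 10.32, 10.23 and 10.34 under miR-34a, against 9.53, 9.63 and 9.45 under Let-7b (0.76 ± 0.09, adjusted p = 7.59e-06). Srf, the factor that drives actin genes, was higher (0.73), as was Myl9 (0.50), and in all 9 of 28 actin and adhesion genes were higher (32.1%, against 7.86% of all genes) and 2 lower (7.1%, against 7.55%). Among the connexins Gja1, connexin 43, was lower (−0.61 ± 0.11, adjusted p = 0.000323), opposite in direction to Gja5. Of 35 matrix glycoproteins and proteases 9 were higher (25.7%, against 7.86% of all genes), among them Adamts5 (1.00), Mmp11 (0.91), Nid2 (0.73) and Mmp14 (0.57). In this list 4 were lower (11.4%, against 7.55%). The collagenase Mmp13 was among the lower ones, at 6.41, 6.46 and 6.39 under miR-34a, against 7.60, 7.59 and 7.86 under Let-7b (adjusted p = 8.30e-07), with the miR-34a mean below the background level.

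Where genes of the unfolded protein response differed, they were lower under miR-34a than under Let-7b. Cells answer misfolded protein in the endoplasmic reticulum through this response. None of 22 members passed as higher under miR-34a than under Let-7b. In all 11 were lower (50.0%, against 7.55% of all genes), with a median of −0.27. By limma, 0 were higher at an unadjusted p under 0.05 either. The 11 that did not pass ran from −0.34 to 0.11. The median difference from the control, whose arrays both mimics share, was 0.06 for miR-34a and 0.32 for Let-7b. Edem1, which sends misfolded glycoproteins to degradation, read 10.21, 10.31 and 10.03 under miR-34a, against 11.38, 11.32 and 11.31 under Let-7b, 2.22-fold lower (−1.15 ± 0.07, adjusted p = 2.19e-09). Ern1, the stress sensor of the endoplasmic reticulum also called Ire1, read 9.06, 9.08 and 9.09 under miR-34a, against 9.92, 9.95 and 9.95 under Let-7b (−0.86 ± 0.11, adjusted p = 8.07e-06), with controls at 9.60, 9.37 and 9.27. Hyou1 (−0.61) and Sdf2l1 (−0.74), a chaperone and a chaperone partner, and the secreted factor Manf (−0.47) were lower as well. For these 5 genes the controls lay between the mimics. For the lower members Dnajc3, Sel1l, Eif2ak3, Hspa5 and Atf6 the miR-34a values overlapped the controls and the Let-7b values lay above them. Herpud1, also lower, lay above the controls with both mimics. These further members were named after their values were seen.

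Serine and one-carbon metabolism and the ATF4 stress response shared this direction. Of 28 members 10 were lower (35.7%, against 7.55% of all genes) and 1 was higher, Gars (0.27), named after its value was seen. Psat1, an enzyme of serine synthesis, read 10.47, 11.01 and 10.28 under miR-34a, against 12.10, 12.14 and 12.14 under Let-7b (−1.54 ± 0.11, adjusted p = 7.70e-09), with controls at 12.19, 12.25 and 12.24. The Let-7b values of Psat1 lay just below the controls and the miR-34a values far below them. Mthfd2, a mitochondrial folate enzyme, read 10.70, 11.06 and 10.72 under miR-34a, against 11.57, 11.62 and 11.65 under Let-7b (−0.79 ± 0.09, adjusted p = 2.98e-06). The stress factor Ddit3, also called Chop, stood apart with Let-7b instead, at 9.04, 8.99 and 9.31 under miR-34a, against 9.80, 9.58 and 10.16 under Let-7b (−0.74 ± 0.15, adjusted p = 0.00127), with controls at 8.999, 8.98 and 8.95. In glycolysis and hypoxia 9 of 27 members were higher (33.3%, against 7.86% of all genes) and 4 lower (14.8%, against 7.55%). Pfkl (0.88) and Pgam1 (0.68), enzymes of glycolysis, and the oxygen sensor Egln1 (0.38) were higher, while Ndrg1 (−1.03 ± 0.14, adjusted p = 2.98e-05) and the muscle enolase Eno3 (−0.43 ± 0.07, adjusted p = 9.86e-05) were lower. Of 20 genes of cholesterol synthesis 3 were higher, among them the early enzyme Hmgcs1 (0.71 ± 0.11, adjusted p = 7.62e-05), and 5 were lower (25.0%, against 7.55% of all genes). Here the share of higher genes was above the 7.86% of all genes as well. Without the first miR-34a replicate 5 were higher and 2 lower, and without the first Let-7b replicate 3 were lower.

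Some genes of the machinery that makes and uses microRNAs differed between the mimics. Of 19 measured members 4 were higher (21.1%, against 7.86% of all genes) and 2 lower (10.5%, against 7.55%). Dicer1, the enzyme that cuts the precursor and a listed let-7 target, read 10.91, 10.55 and 10.92 under miR-34a, against 10.09, 9.92 and 9.82 under Let-7b (0.85 ± 0.11, adjusted p = 8.38e-06), with controls at 10.92, 10.72 and 10.81. Tarbp2 and Prkra encode the partner proteins of Dicer. Tarbp2 read 10.15, 10.16 and 10.33 under miR-34a, against 9.20, 8.92 and 8.89 under Let-7b (1.21 ± 0.09, adjusted p = 2.36e-08) and Prkra read 8.63, 8.48 and 8.71 under miR-34a, against 8.09, 8.17 and 8.003 under Let-7b (0.52 ± 0.09, adjusted p = 0.00038). Ago2, the slicing Argonaute, read 11.74, 11.73 and 11.80 under miR-34a, against 11.44, 11.33 and 11.39 under Let-7b (0.37 ± 0.07, adjusted p = 0.0013), with controls of 11.86, 11.86 and 11.93 above both mimics. All 4 were lower with Let-7b. Tnrc6b, a partner of Argonaute, was the other way round at 10.21, 10.38 and 10.29 under miR-34a, against 10.87, 11.07 and 11.09 under Let-7b (−0.72 ± 0.09, adjusted p = 1.49e-05), and Dgcr8 (−0.30), named after its value was seen, was the second lower gene.

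**Figure D4:**
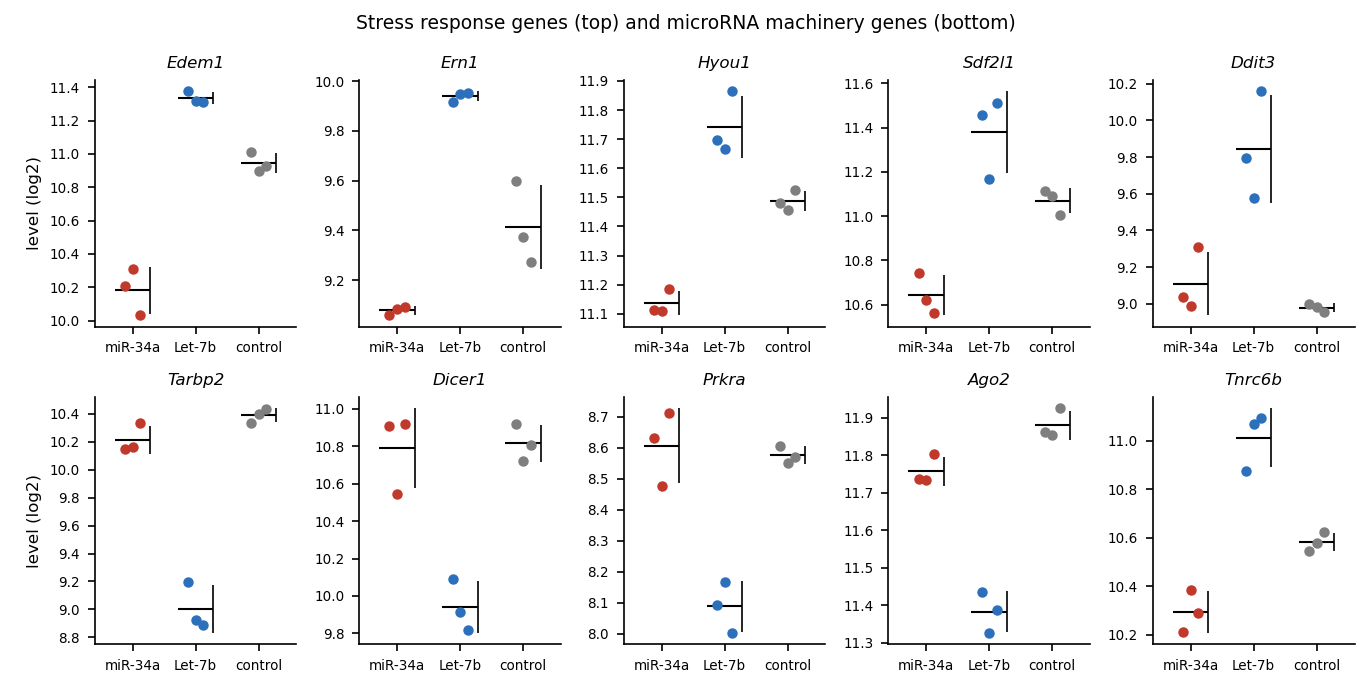
Levels (log2 RMA value; each panel has its own axis, which does not start at 0) of 5 stress response genes in the top row and 5 genes of the microRNA machinery in the bottom row. Points are the 3 samples of miR-34a, Let-7b and the control, horizontal bars the means and vertical bars the SD (n = 3 each); the Let-7b values are highest in the whole top row and lowest for Tarbp2, Dicer1, Prkra and Ago2.

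In the Polycomb and chromatin list 8 of 31 members were higher (25.8%, against 7.86% of all genes) and 5 lower (16.1%, against 7.55%). Suz12, a core subunit of Polycomb repressive complex 2, read 9.81, 9.81 and 9.46 under miR-34a, against 11.11, 11.14 and 11.11 under Let-7b, 2.69-fold lower (−1.43 ± 0.10, adjusted p = 2.88e-09), with controls at 11.14, 11.20 and 11.23. The complex's accessory subunits went both ways: Phf19 read 7.21, 7.32 and 7.42 under miR-34a, against 8.82, 8.35 and 8.53 under Let-7b (−1.25 ± 0.12, adjusted p = 2.70e-07) and Mtf2 read 10.37, 10.14 and 10.28 under miR-34a, against 9.63, 9.49 and 9.41 under Let-7b (0.75 ± 0.08, adjusted p = 1.90e-06). The maintenance methyltransferase Dnmt1 was lower (−0.45), and the demethylase Kdm6b higher (0.62). Of 24 Bcl2 family and death genes, Bnip3 (0.72) and Bok (0.63) were higher and Bcl2 was among the 2 lower, shares of 8.3% each way that lie near the 7.86% and 7.55% of all genes. The death receptor Fas did not pass (0.05 ± 0.17, adjusted p = 0.914; 95% interval −0.29 to 0.40).

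In the other lists few members passed. Their shares stand against 7.86% of all genes higher and 7.55% lower. None of 30 interferon-stimulated genes passed in limma's fit of 21 arrays, and 2 had an unadjusted p under 0.05, Ddx58 (−0.83) and Isg20 (−0.63), named after their values were seen; 6 were lower when only the 6 arrays gave the error and 5 without the miR-145 arrays. Of 9 CDK inhibitors and pocket proteins 1 was higher and 2 lower (22.2%), of 17 connexins and junction genes 2 were higher (11.8%, or 5 members with the replicate block) and 1 lower, and of 11 oncofetal partners of let-7 3 were higher (27.3%, against 7.86% of all genes; 1 to 2 members without 1 of the 6 arrays). In lysosome and autophagy 1 of 28 members was higher (3.6%), Ulk1 (0.51), and 1 lower (3.6%), Atg7 (−0.29), both shares under those of all genes. In ribosome biogenesis 2 of 30 were higher (6.7%) and 3 lower (10.0%, or 5 members with the replicate block). In oxidative phosphorylation 4 of 27 were higher (14.8%, or 7 members with the replicate block), by 0.35 at most, and 1 lower. Of 30 collagen and collagen assembly genes 4 were higher (13.3%), among them Col4a2 (0.55), and Plod1 (−0.30) was lower.

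**Figure D5:**
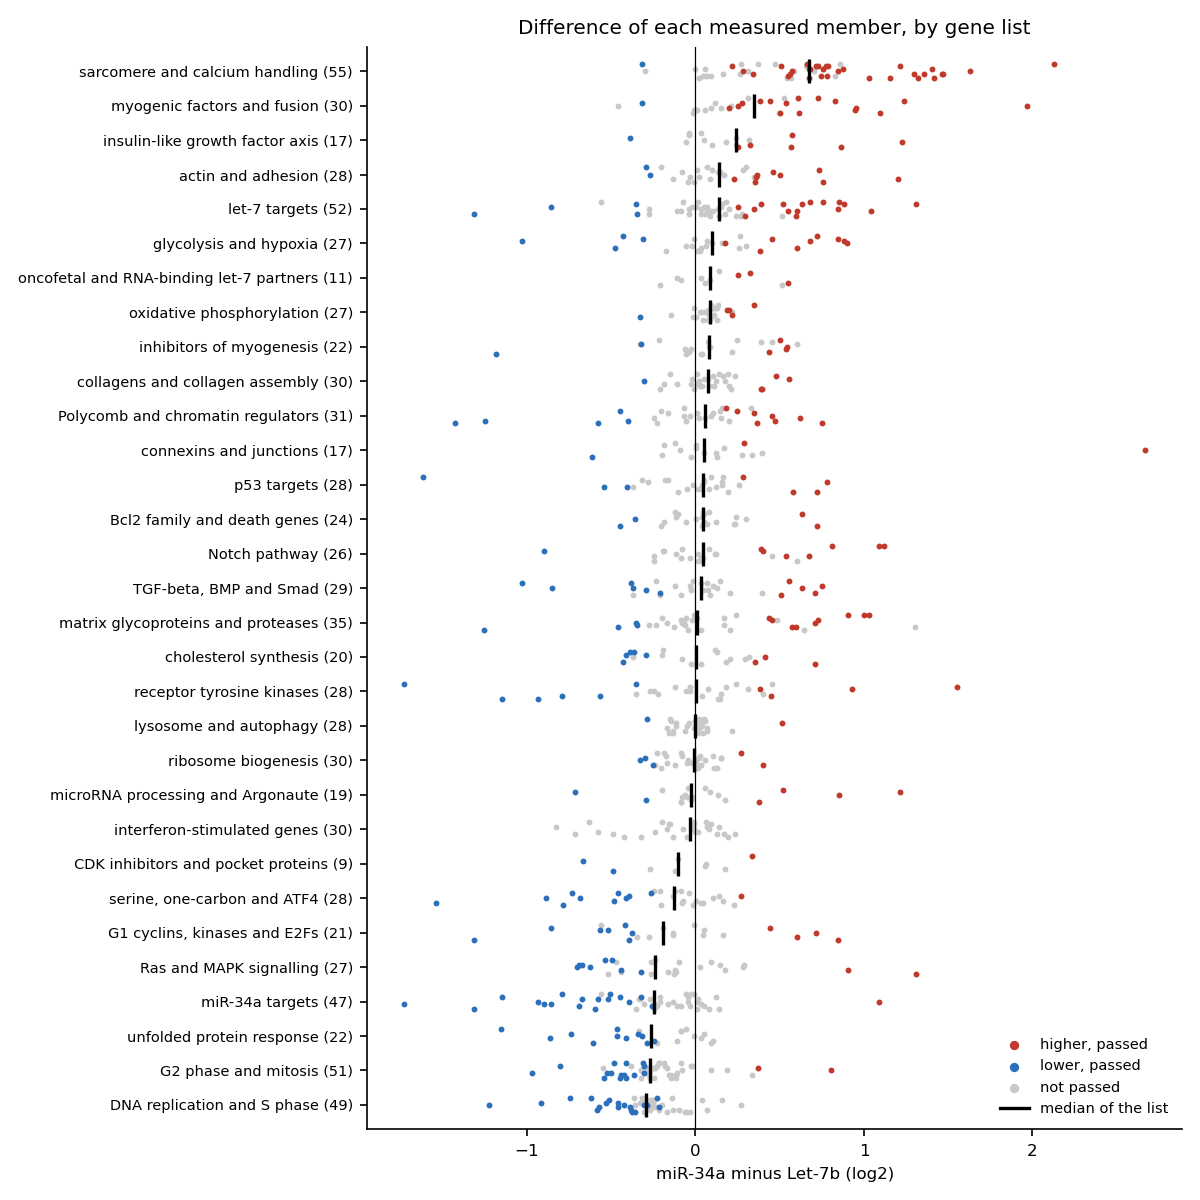
Each row is 1 gene list, with its number of measured members in parentheses, and each point is 1 member placed by its difference miR-34a minus Let-7b (log2). Coloured points passed, grey points did not, and black bars are the medians, which run from −0.29 for DNA replication to 0.67 for the sarcomere list.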

How the data were processed

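The deposited table holds log2 values of 35556 probe sets on 29 arrays, which the authors made with RMA in Affymetrix Expression Console 1.1, per the submitters' processing notes. RMA corrects the background, equalises array quantiles and summarises probes, so a shift of all genes alike is removed. The build and filters are not given in the sources used here. Probe sets with several symbols (1621) or no listed gene (12146) were not named. Each gene took its probe set with the highest mean, which left 19938 genes, 999 of them with more than 1 probe set.

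limma 3.58.1 (R 4.3.3) fitted 1 linear model per gene to the 21 arrays of the 7 mimics, with group as the term and moderated variances with a trend (14 residual and 6.12 prior degrees of freedom). The contrast miR-34a minus Let-7b was tested 2-sided, with Benjamini-Hochberg adjustment over all genes. Control arrays served as levels only, each averaged with its technical repeat. With 3 arrays against 3 an exact permutation test could not go below 0.1.

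Replicate numbers were taken to pair the samples from the data, since the labels give repeats but do not tie the numbers to them: residuals of same-numbered miR-34a and Let-7b arrays had r = 0.127, 0.144 and 0.207, and other pairs −0.196 to 0.0213. The main fit has no term for this pairing, so its SE and p-values leave it out. With the replicate number as a block over the 21 arrays, 4188 genes passed, against 3073. In simulated data for this comparison, 78% of planted log2 changes of 0.5 and 99% of those of 1 were recovered among 19938 genes, with 9 unchanged genes called.

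Members and gene lists were chosen with earlier results of these data known, so counts of list members are descriptions. Named are the 15 largest differences in each direction that passed without overlap and above background, at most 5 passing members per list, 34 genes fixed by name, and 8 genes per direction and mimic where 1 mimic lay apart from the control. Alternatives were other sets of arrays, a replicate block, scalings, a filter on dim genes, means of probe sets, and leaving out each array. Sequences came from RefSeq (GRCm38.p6). Sites in untranslated regions were not searched.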

Additional observations from a re-analysis of the deposited data

How the results depend on the processing

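Under the 16 alternatives the count of genes that differed lay between 2236 and 4188, against 3073. It was 2236 to 2608 when 1 of the 6 arrays was left out, 2721 with arrays centred on their median (1548 higher and 1173 lower) and 4188 with the replicate number as a block (2072 higher and 2116 lower), and each of these was within 1.5 times. Of 188 named genes, 158 kept their call and direction in every alternative. Beside Myc, Hmga2 and Cdc25a, the replicate block over 21 arrays changed no other named call. Named genes that had not passed changed sign in 3 cases and again did not pass: Igf2bp1 to −0.04946 (adjusted p = 0.857) without miR-34a replicate 1, and Fas to −0.1234 (adjusted p = 0.794) without miR-34a replicate 2 and to −0.01985 (adjusted p = 0.975) without Let-7b replicate 1. With 1 array left out Igf2bp1 lay between −0.04946 and 0.08217 and Fas between −0.1234 and 0.2293. With the block and only the 6 arrays, 34 replication, 33 mitosis, 11 G1, 7 let-7 target, 7 matrix, 7 interferon-stimulated, 6 p53 target and 6 ribosome biogenesis genes were lower, and 8 inhibitors of myogenesis, 7 receptor tyrosine kinases and 5 Bcl2 family genes were higher. Without the dimmest 40% of genes, 7 oxidative phosphorylation genes were higher. The causes were not tested. List counts under 5 can turn on 1 array, as in ribosome biogenesis, where 0 to 2 genes were higher and 1 to 3 lower with 1 array left out.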
